A study of Danio rerio with 16 samples.

Results

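Heat shock proteins, their co-chaperones and the factors that control them were followed in zebrafish skeletal muscle by RNA sequencing. The members were all genes of the count table whose symbol begins, with case ignored, with the letters of a chaperone family: the heat shock proteins (hsp), the J proteins (dnaja, dnajb and dnajc), bag1 to bag6, cct2 to cct8, tcp1, cryab, unc45, smyd1, hsf1 to hsf4, stip1, ahsa1, chordc1 and serp1. The rule gave 123 of 32520 genes. It reads symbols only and no measured values, but the members were chosen with earlier results of these data known. Of the 123 members, 112 passed the filter on low counts and were tested, among 16514 genes in all. Adult fish formed 4 groups of 4, with RNA of 1 fish in each library. Injured mutants carried bns502, an allele of ankrd1a from CRISPR/Cas9 editing, and were sampled 5 days after a needle was pushed into and pulled out of the dorsal tail muscle. Non-injured mutants of the same line gave the matching region. Injured wild types of the AB (Oregon) strain were stabbed and sampled in the same way, and non-injured wild types gave the matching region. The labels give neither the age of the fish nor how many founders the mutant line has, and the lesion in ankrd1a is not described. The series asked which genes lie downstream of ankrd1a in muscle repair.

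Chaperones bind proteins that are not yet folded or have lost their fold. HSP70 proteins hold and release such clients in a cycle of ATP hydrolysis that J proteins start and that BAG proteins and HSP110 turn over. HSP90 takes over later folding steps with a set of co-chaperones, small heat shock proteins keep unfolded clients soluble, and the ring-shaped complex TRiC folds actin and tubulin. In muscle, UNC45B works with HSP90 to fold the myosin motor, and SMYD1 takes part in building the sarcomere. HSF1 is the transcription factor that raises many of these genes after heat or other protein damage.

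The classes were DNAJ (52 members, 47 tested), HSP70 and HSP110 (19, 16 tested), small heat shock proteins (12, 11 tested), TRiC genes (9, with CCT2 under both of its IDs), other co-chaperones (9), BAG proteins (7), HSP90 (4), myosin chaperones (4), heat shock factors (3, 2 tested) and the mitochondrial pair HSPD1 and HSPE1 (2). HSF2BP, which codes for a partner of HSF2, fits the letters and was not tested. HSPG2 fits them too, but codes for the matrix proteoglycan perlecan, and is described apart but stays in the counts of members. The 11 members that were not tested were DNAJB13, DNAJC22, DNAJC5B, HSF4, HSF2BP, HSPA4L, hspa12a.1, hspa12a.2 and 1 ID each of DNAJC16, DNAJC5 and CRYAB. They had at most 27 counts in any library, and this CRYAB ID (ENSDARG00000042621) had 0 in all 16. Many symbols come from the human gene, and 30 member IDs share a symbol with another, so IDs are given where they matter.

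Libraries held 17324501 to 25231137 estimated counts. Within groups, Pearson's r of log2 CPM between libraries was 0.939 to 0.978, taken across genes, which are not independent replicates. CPM is a gene's count relative to the library total after TMM scaling, which sets levels against the bulk of genes. Markers of muscle fibres summed to 223159 to 281698 CPM in injured mutants, 227099 to 386630 CPM in non-injured mutants, 248866 to 424041 CPM in injured wild types and 252756 to 512170 CPM in non-injured wild types, so every library carried muscle fibre transcripts. Other cell types moved with injury: 15 of 18 tested macrophage markers rose in mutants and 6 of 18 in wild types, 3 of 5 neutrophil markers rose in each genotype, and 6 of 9 endothelial markers fell in each. Their part in the results was not tested. Epidermis markers summed to a median of 432 CPM in injured mutants, 185 CPM in non-injured mutants, 453 CPM in injured wild types and 429 CPM in non-injured wild types. Their median log2 fold change was 1.08 with injury in mutants and -1.82 between genotypes without injury, although 0 of 18 passed in any comparison by edgeR, and they were highest in non-injured wild type 1 (1608 CPM summed) and injured wild type 1 (1223 CPM). In whole tissue, fewer cells of a type and less RNA per cell cannot be told apart. Members took 0.844 to 0.914% of the counts of injured mutants, 0.704 to 0.872% of those of non-injured mutants, 0.614 to 0.741% in injured wild types and 0.495 to 0.703% in non-injured wild types.

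At 5 days after injury the members split into a small group of higher and a larger group of lower transcripts. In mutants 10 members rose and 19 fell, and in wild types 5 rose and 23 fell, at an adjusted p below 0.05 over all genes tested (edgeR's quasi-likelihood test with Benjamini-Hochberg adjustment). Of all tested genes 27.2% were called in mutants (14.0% higher and 13.3% lower) and 23.8% in wild types (11.8% higher and 11.9% lower), while of the members 25.9% and 25.0% were called, so the share of members called lay near the background. Groups without overlap were common too. All 4 injured fish lay above all 4 non-injured fish in 10.7% of members in mutants and 5.36% in wild types, against 16.3% and 11.8% of all tested genes. All 4 lay below in 19.6% and 11.6% of members, against 14.8% and 10.3% of all tested genes. The median log2 fold change of members was -0.08 in mutants and -0.17 in wild types, against -0.02 and -0.03 over all tested genes. Both genotypes shared 15 falls and 5 rises, 4 members fell and 5 rose in mutants alone, 8 fell in wild types alone, and 0 were called in opposite directions. Being called in 1 genotype does not show a difference between them: in the test of that difference 0 members passed. The wild type count of 28 became 17 without injured wild type 1, 17 without injured wild type 2, 18 without non-injured wild type 3, 13 without the 2 libraries highest in epidermis markers and 12 with only the groups compared. Calls of all genes changed too, from 1956 higher and 1971 lower to 1401 and 1251 without injured wild type 1. They were 1419 and 1189 without injured wild type 2, and 1945 and 1708 without non-injured wild type 3. They were 1364 and 1347 without the 2 epidermis-rich libraries and 1408 and 1157 with only the groups compared. The mutant count of 29 became 20 with the epidermis level as a covariate (9 higher and 11 lower) and 35 with only the groups compared. Of all genes 1863 were higher and 1595 lower with the covariate and 2481 and 2206 with only the groups compared, against 2306 and 2190.

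**Figure D1:**
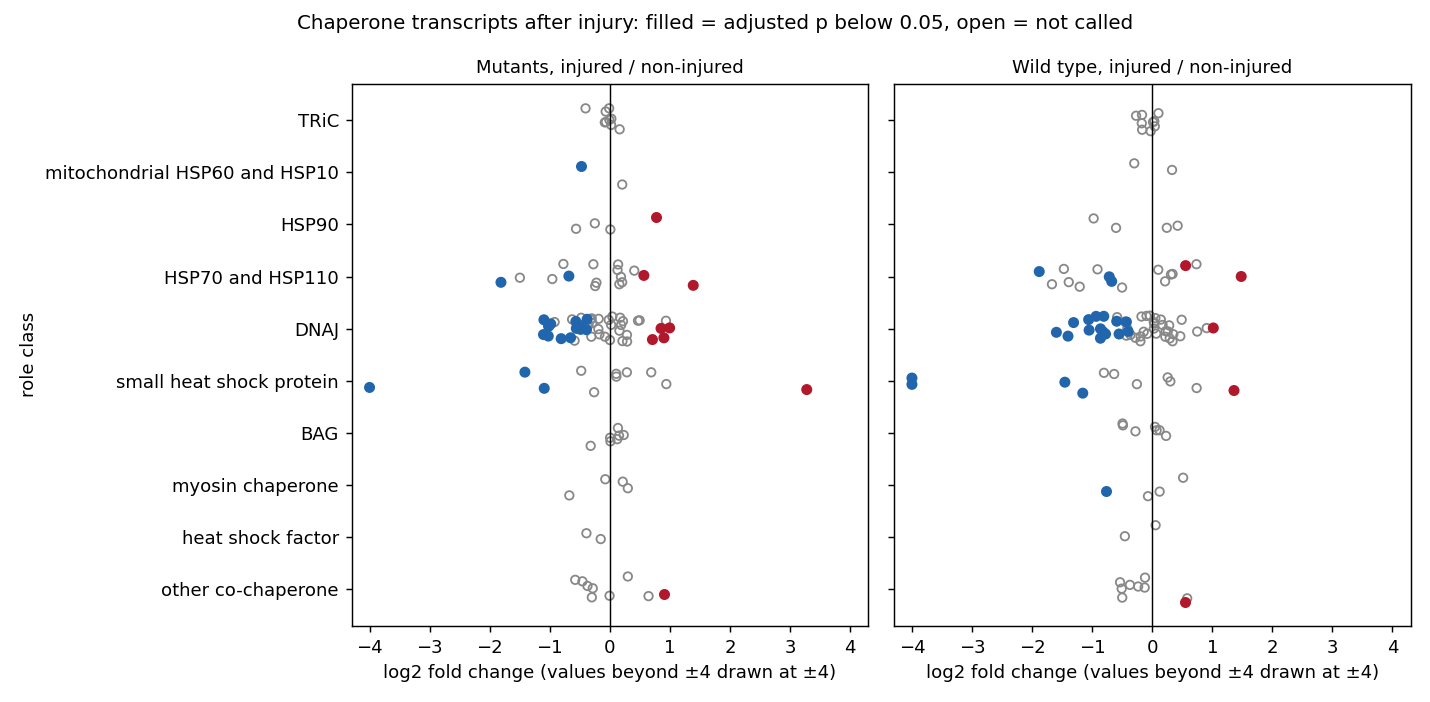
Log2 fold change (injured over non-injured) of each tested member, by role class, in mutants (left) and wild types (right). Filled points are called, red higher and blue lower, open points are not called, and 3 points of scarce small heat shock proteins beyond -4 are drawn at -4. HSPG2 is left out. DNAJ points lie mostly to the left, and the 9 TRiC points are all open.

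Directions here are relative to the median gene. When library size was the only scaling, the median of all genes moved up to a log2 of 0.26 in mutants and 0.34 in wild types, and the split became 16 higher and 5 lower in mutants and 21 higher and 9 lower in wild types. Of all 16514 tested genes 3108 were then higher and 779 lower in mutants, and 3673 higher and 537 lower in wild types. Positive log2 values were held by 58.9% of members and 67.1% of all tested genes in mutants. In wild types the shares were 59.8% and 72.2%.

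Of the HSP70 and HSP110 genes, the cytosolic HSPA8 and the endoplasmic reticulum form HSPA5 rose in both genotypes. HSPA8 (ENSDARG00000068992), the constitutive cytosolic HSP70, had 1082, 711, 864 and 924 CPM in injured mutants, against 311, 319, 299 and 438 CPM in non-injured mutants. It had 1177, 948, 915 and 652 CPM in injured wild types, against 387, 246, 467 and 222 CPM in non-injured wild types. All injured fish stood above all non-injured fish in both genotypes. The log2 fold change was 1.39 (SE 0.25, adjusted p = 0.000921) in mutants and 1.48 (SE 0.25, adjusted p = 0.000782) in wild types, and both calls held under all 25 alternatives.

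A second, scarce HSPA8 ID (ENSDARG00000037403) went the other way. It had 0.373, 0.691, 0.988 and 0.502 CPM in injured mutants, against 1.56, 2.94, 2.91 and 1.6 CPM in non-injured mutants, and 0.363, 0.61, 0.614 and 0.676 CPM in injured wild types, against 1.9, 2.01, 2.32 and 2.13 CPM in non-injured wild types. The groups did not overlap in either genotype, with log2 fold changes of -1.81 (SE 0.32, adjusted p = 0.000869) in mutants and -1.88 (SE 0.32, adjusted p = 0.000862) in wild types. Reads of close copies are divided by probability in these estimated counts, so the 2 IDs of HSPA8 are each uncertain.

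HSPA5, the HSP70 of the endoplasmic reticulum also known as BiP, had 112, 90.8, 96.5 and 91.2 CPM in injured mutants, against 66.3, 55.8, 63.3 and 78 CPM in non-injured mutants. It had 96.4, 76.5, 61.9 and 78 CPM in injured wild types, against 62.6, 37.1, 62.1 and 50.9 CPM in non-injured wild types. The groups stood apart in mutants, while in wild types injured fish 3 lay just below the highest non-injured fish. HSPA5 rose by a log2 of 0.57 (SE 0.17, adjusted p = 0.0247) in mutants and 0.56 (SE 0.17, adjusted p = 0.0307) in wild types. HSPH1, an HSP110 that frees ADP from HSP70, fell to 4.36 ± 0.577 CPM in injured mutants, against 7.0 ± 0.665 CPM in non-injured mutants (SD, n = 4; log2 -0.68 (SE 0.20, adjusted p = 0.0199)). It fell to 5.04 ± 0.923 CPM in injured wild types, against 8.28 ± 2.41 CPM in non-injured wild types (log2 -0.72 (SE 0.20, adjusted p = 0.0167)). Under the 25 alternatives the call of HSPA5 was lost in 4 in mutants and 8 in wild types, and that of HSPH1 in 2 and 5. HSPA12B, a distant relative known from endothelial cells, fell in wild types (-0.67 (SE 0.20, adjusted p = 0.0208)) and had -0.22 (SE 0.20, adjusted p = 0.425) in mutants, beside the endothelial markers given above. Mitochondrial HSPA9 (-0.27 in mutants and -0.50 in wild types) and the 2 HSPA4 IDs (0.14 in mutants and 0.10 in wild types and 0.41 in mutants and 0.34 in wild types) were not called. In all, 2 of 16 HSP70 and HSP110 genes rose and 2 fell in mutants, and 2 rose and 3 fell in wild types. That is 25% called in mutants and 31.25% in wild types, against 27.2% and 23.8% of all tested genes.

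**Figure D2:**
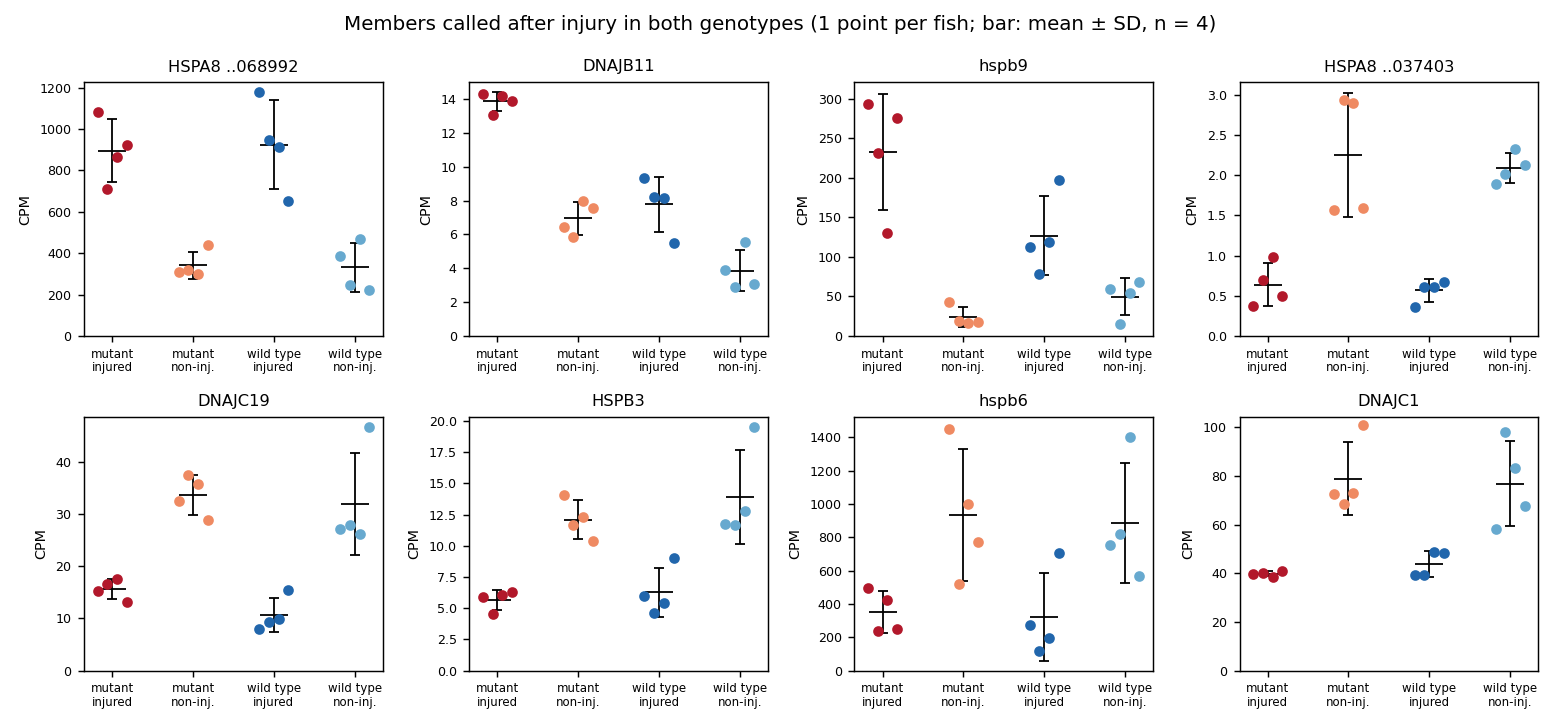
CPM in each fish for 8 members called after injury in both genotypes; bars are mean ± SD of 4 fish. The first 3 panels show rises and the other 5 falls, and injured mutants of hspb9 lie between 129.6 and 294 CPM, above all non-injured fish.

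HSP70 genes taken as stress-inducible, the kind that HSF1 switches on in heat-shocked cells, passed the test nowhere. hsp70.1, hsp70.3, hsp70l, hspa1b and HSPA2 were set together after their values were seen, so their common behaviour is a description. Whether the gene with the symbol HSPA2 is heat-inducible in zebrafish was not tested here. Fish differed widely within groups. Non-injured wild type 3 was the highest of its group for 5 of the 5 genes and summed to 293 CPM, while non-injured wild type 2 was the lowest for 5 of 5 at 36.6 CPM. Non-injured wild type 2 was also lowest of its group in the sums of BAG (125 CPM), HSP90 (852 CPM), J (901 CPM) and small heat shock proteins (1131 CPM). It was not lowest for TRiC or the mitochondrial pair, and was highest for heat shock factors (29.0 CPM). Its sum of myosin chaperones was also highest (1955 CPM), but SMYD1 (ENSDARG00000009280) gave 1853 CPM of it. The other myosin chaperones were lowest of their group in this fish, with UNC45B at 49.2 CPM, SMYD1 (ENSDARG00000091253) at 51.0 CPM and UNC45A at 1.46 CPM. Injured mutant 2 was the highest of its group for 4 of 5, at 139.6 CPM summed, against 43.9 to 72.3 CPM in the other injured mutants. Non-injured mutants summed to 154.8, 60.1, 56.9 and 178.8 CPM, injured wild types to 52.1, 45.7, 61.4 and 48.1 CPM, and the other non-injured wild types to 94.5 and 94.1 CPM.

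In the largest fitted change, hsp70.3 had 9.08, 9.54, 7.23 and 6.51 CPM in injured wild types, against 18.5, 4.88, 55.9 and 23.6 CPM in non-injured wild types, a log2 of -1.67 (SE 0.62, adjusted p = 0.0646). The groups overlapped through non-injured wild type 2, and in mutants the log2 was -0.24 (SE 0.60, adjusted p = 0.796). The same fish stood out for HSP90AA1, another inducible gene, with 67.1 CPM in non-injured wild type 3 and 54.1 CPM in injured mutant 2. In the RefSeq table of assembly GRCz12tu, hsp70.1 and hsp70.3 lie beside hsp70.2 as 3 neighbours, so reads may be divided among close copies.

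**Figure D3:**
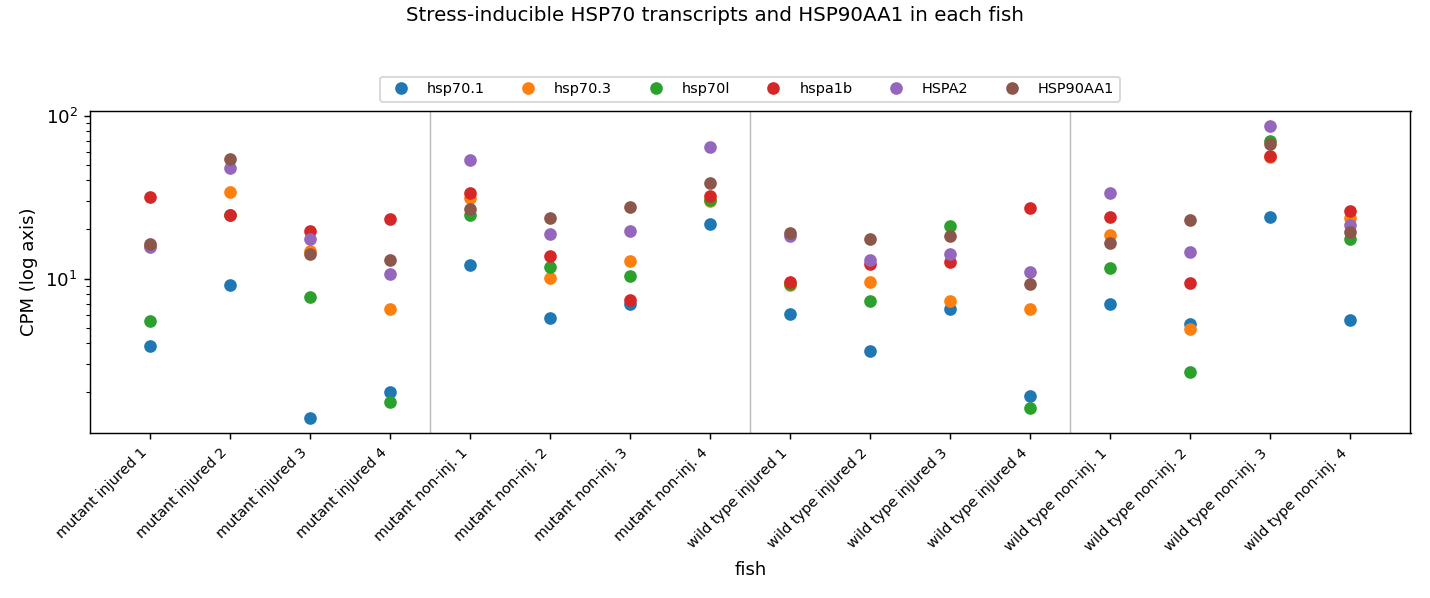
CPM on a log axis for 5 HSP70 genes set together as stress-inducible and for HSP90AA1 in each of 16 fish, grouped by genotype and injury. The points of non-injured wild type 3 and injured mutant 2 sit high in their groups for most of these genes, and those of non-injured wild type 2 sit low for the 5 HSP70 genes.

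J proteins, which bring clients to HSP70 and start its cycle, held 13 of the 19 falls in mutants and 15 of the 23 in wild types. They made up 47 of the 112 tested members. Of these 47, 4 rose and 13 fell in mutants, and 1 rose and 15 fell in wild types. In all, 36.2% were called in mutants and 34.0% in wild types, against 27.2% and 23.8% of all tested genes. The summed level of the class was 762 to 816 CPM in injured mutants, against 922 to 1219 CPM in non-injured mutants. It was 616 to 826 CPM in injured wild types, against 901 to 1048 CPM in non-injured wild types. After TMM scaling, sums of the 2 states did not overlap in either genotype. That gap leans on the scaling, since TMM factors ran from 0.678 in non-injured wild type 2 to 1.27 in injured wild type 2. If these factors are left out, the wild type sums overlap and the mutant sums barely stay apart. How often sums of other gene sets of this size part was not tested.

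DNAJC19, which sits at the mitochondrial import motor, had 15.3, 16.5, 17.6 and 13.2 CPM in injured mutants, against 32.4, 37.5, 35.8 and 28.9 CPM in non-injured mutants. It had 7.88, 9.29, 9.83 and 15.3 CPM in injured wild types, against 27.1, 27.9, 26.2 and 46.6 CPM in non-injured wild types. Injured fish were all lower than non-injured fish in both genotypes, by a log2 of -1.10 (SE 0.21, adjusted p = 0.0016) in mutants and -1.59 (SE 0.22, adjusted p = 0.00015) in wild types. DNAJC1, a J protein of the endoplasmic reticulum membrane, had 39.6, 40.2, 38.6 and 40.9 CPM in injured mutants, against 72.6, 68.3, 73.1 and 101 CPM in non-injured mutants. It had 39.2, 39.4, 48.6 and 48.4 CPM in injured wild types, against 58.3, 97.9, 83.2 and 67.6 CPM in non-injured wild types. Again no fish overlapped, with log2 fold changes of -0.98 (SE 0.16, adjusted p = 0.000598) in mutants and -0.81 (SE 0.16, adjusted p = 0.00276) in wild types. These 4 calls held under all 25 alternatives.

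The gene named dnaja (ENSDARG00000051762) had 40.0, 39.1, 46 and 37.7 CPM in injured mutants, against 85.3, 51.1, 53 and 96.1 CPM in non-injured mutants. In wild types it had 21.6, 20.9, 27.8 and 22.2 CPM in injured wild types, against 67.2, 30.5, 77.8 and 69.1 CPM in non-injured wild types. Injured fish were lower without overlap in both genotypes, at -0.81 (SE 0.25, adjusted p = 0.027) in mutants and -1.40 (SE 0.26, adjusted p = 0.00148) in wild types. dnajc4 had 13.1, 14.3, 15.6 and 13 CPM in injured mutants, against 26.7, 17.4, 18.2 and 25.8 CPM in non-injured mutants. It had 8.72, 12, 10.5 and 11.3 CPM in injured wild types, against 20.3, 21.8, 22.1 and 23.8 CPM in non-injured wild types. The states again did not overlap, at -0.65 (SE 0.15, adjusted p = 0.00471) in mutants and -1.05 (SE 0.15, adjusted p = 0.000231) in wild types. DNAJC28 had 3.73, 3.09, 3.41 and 3.11 CPM in injured mutants, against 8.78, 6.89, 6.6 and 4.86 CPM in non-injured mutants. It had 2.98, 2.98, 1.99 and 4.57 CPM in injured wild types, against 5.1, 5.49, 4.7 and 7.44 CPM in non-injured wild types. No injured fish reached a non-injured fish of its own genotype, at -1.02 (SE 0.23, adjusted p = 0.00481) in mutants and -0.86 (SE 0.23, adjusted p = 0.0145) in wild types. The mutant calls of dnaja, dnajc4 and DNAJC28 and the wild type call of DNAJC28 were lost with library size as the only scaling, at adjusted p = 0.18, 0.16, 0.0666 and 0.204. In all, the mutant call of dnaja was lost under 7 of 25 alternatives, among them the epidermis covariate and leaving out non-injured mutant 1 or 4 or injured mutant 1, 2 or 4, and the wild type call of DNAJC28 under 3 of 25, among them leaving out non-injured wild type 4.

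Cytosolic J proteins of the A and B types followed, together with dnajc18 of the C type. DNAJA2 (ENSDARG00000104066), a partner of cytosolic HSP70, had 80.4, 87.3, 79 and 85.5 CPM in injured mutants, against 108, 97.6, 121 and 136 CPM in non-injured mutants. It had 90.2, 80.6, 97.6 and 100.3 CPM in injured wild types, against 132, 158, 143 and 122 CPM in non-injured wild types. Injured fish were lower without overlap in both genotypes, at -0.48 (SE 0.13, adjusted p = 0.0125) in mutants and -0.59 (SE 0.13, adjusted p = 0.0042) in wild types. With library size as the only scaling both calls were lost, at adjusted p = 0.279 and 0.191. dnajb1b, related to the J protein that works with HSP70 in disaggregation, had log2 fold changes of -1.02 in mutants and -1.06 in wild types, and DNAJB4 of -1.10 in mutants and -1.31 in wild types. dnajb6a, related to a J protein of the muscle Z-disc, had -0.56 in mutants and -0.40 in wild types, and dnajc18 -0.49 in mutants and -0.43 in wild types. All 4 were called in both genotypes, but their calls were lost under 1 to 16 of the 25 alternatives.

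Falls called in wild types alone were dnaja1 (-0.50 in mutants and -0.86 in wild types), dnajb1a (-0.32 in mutants and -0.78 in wild types), mitochondrial DNAJA3 (-0.48 in mutants and -0.55 in wild types), dnajc30b (-0.35 in mutants and -0.93 in wild types) and DNAJC24, which acts in diphthamide synthesis (-0.29 in mutants and -0.82 in wild types). DNAJA3 and dnajc30b passed narrowly (edgeR adjusted p = 0.0415 and 0.0499), and their calls held under only 9 and 8 of 25 alternatives. Those of dnaja1, dnajb1a and DNAJC24 held under 22, 22 and 18. Falls called in mutants alone were DNAJB12 (ENSDARG00000039363, -0.39 in mutants and -0.28 in wild types), DNAJC16 (ENSDARG00000060725, -0.38 in mutants and -0.19 in wild types) and the other DNAJA2 ID (ENSDARG00000010745, -0.57 in mutants and -0.42 in wild types). The call of DNAJB12 was narrow (edgeR adjusted p = 0.0463) and held under 10 of 25 alternatives. That of DNAJC16 held under 24 and that of this DNAJA2 ID under 17.

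DNAJB11, a luminal partner of HSPA5 in the endoplasmic reticulum, rose in both genotypes. It had 14.3, 13.1, 14.2 and 13.9 CPM in injured mutants, against 6.41, 5.88, 7.98 and 7.55 CPM in non-injured mutants. It had 9.33, 8.21, 8.13 and 5.5 CPM in injured wild types, against 3.92, 2.87, 5.52 and 3.08 CPM in non-injured wild types. The states stood apart in mutants, and in wild types injured fish 4 fell just short of the highest non-injured fish. The log2 fold change was 1.0 (SE 0.19, adjusted p = 0.00178) in mutants and 1.02 (SE 0.20, adjusted p = 0.00222) in wild types, called under all 25 alternatives. Called higher in mutants alone were DNAJB9 (ENSDARG00000016886), a J protein known from stress of the endoplasmic reticulum (0.90 in mutants and 0.49 in wild types), dnajc14 (0.71 in mutants and 0.26 in wild types) and DNAJB5 (0.85 in mutants and 0.22 in wild types). DNAJB5 had 11.8, 10.6, 8.79 and 10.5 CPM in injured mutants, against 8.57, 5.45, 4.28 and 4.8 CPM in non-injured mutants, and these did not overlap. DNAJB9 lost its mutant call without injured mutant 1, at adjusted p = 0.0509. The mutant call of dnajc14 held under 20 of 25 alternatives.

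Small heat shock proteins held the largest fitted rise of any member in mutants, that of hspb9, beside several falls. In mutants 1 of 11 tested rose and 3 fell, and in wild types 1 rose and 4 fell. That is 36.4% called in mutants and 45.5% in wild types, against 27.2% and 23.8% of all tested genes. Fish also differed more in this class, with a median coefficient of variation within groups of 41.5%, against 21.0% over all tested members and 21.6% over all tested genes.

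The small heat shock protein hspb9 had 294, 231, 129.6 and 276 CPM in injured mutants, against 43.3, 18.3, 16.6 and 17.6 CPM in non-injured mutants. It had 113, 78.9, 119 and 197 CPM in injured wild types, against 59.2, 15.3, 54.2 and 68.8 CPM in non-injured wild types. Injured fish exceeded all non-injured fish in both genotypes, by a log2 of 3.28 (SE 0.47, adjusted p = 0.000212) in mutants and 1.36 (SE 0.44, adjusted p = 0.0353) in wild types. The mutant call held under all 25 alternatives, while the wild type call was lost under 9, with adjusted p up to 0.15. The related hspb9l, at 0.94 in mutants and 0.74 in wild types, did not pass.

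HSPB3, a small heat shock protein of muscle, had 5.88, 4.52, 6.03 and 6.28 CPM in injured mutants, against 14.1, 11.6, 12.3 and 10.4 CPM in non-injured mutants. It had 5.99, 4.63, 5.39 and 9.05 CPM in injured wild types, against 11.7, 11.7, 12.8 and 19.6 CPM in non-injured wild types. All injured fish were lower, by -1.09 (SE 0.21, adjusted p = 0.00176) in mutants and -1.16 (SE 0.21, adjusted p = 0.00145) in wild types, and both calls held under all 25 alternatives. hspb6, of the family known as Hsp20, had 494, 238, 426 and 248 CPM in injured mutants, against 1451, 521, 1002 and 769 CPM in non-injured mutants. It had 274, 117, 193 and 708 CPM in injured wild types, against 751, 821, 1400.3 and 566 CPM in non-injured wild types. The states stood apart in mutants, while injured wild type 4, at 708 CPM, exceeded the lowest non-injured wild type, at 566 CPM. The fitted change was -1.41 (SE 0.49, adjusted p = 0.0433) in mutants and -1.45 (SE 0.49, adjusted p = 0.0425) in wild types. The call was lost under 13 and 15 of the 25 alternatives in mutants and wild types, with adjusted p up to 0.13 and 0.239.

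The scarce members hspb15 and CRYAB (ENSDARG00000101380, an alpha B crystallin gene) were found in some fish and nearly absent in others. CRYAB had 31, 30, 1 and 29 counts in injured mutants, against 57, 0, 4 and 4 in non-injured mutants. It had 0, 0, 0 and 1 counts in injured wild types, against 87, 64, 0 and 54 in non-injured wild types. Scaled for depth, the summed counts gave an injured over non-injured ratio of 1.21 in mutants (95% counting interval 0.869 to 1.69) and 0.00363 in wild types (9.16e-05 to 0.0205). edgeR called the wild type fall (adjusted p = 0.00961), although non-injured wild type 3 was at 0 as well. For hspb15 the sums were 4 counts in injured mutants, against 77 in non-injured mutants, a ratio of 0.0448 (0.0119 to 0.119). They were 1 count in injured wild types, against 96 in non-injured wild types, a ratio of 0.00776 (0.000194 to 0.0443). By fish, hspb15 had 0, 3, 1 and 0 counts in injured mutants, against 0, 61, 10 and 6 in non-injured mutants, and 1, 0, 0 and 0 in injured wild types, against 47, 35, 13 and 1 in non-injured wild types. Non-injured mutant 2 thus held most counts of its group, and the mutant groups overlapped. Both falls of hspb15 were called (adjusted p = 0.0321 in mutants and 0.00955 in wild types). The mutant call was lost under 7 of 24 alternatives, and without non-injured mutant 2 the fitted log2 was -2.53 (adjusted p = 0.186), against -4.29 with it. The wild type call of hspb15 was lost under 1 of 24, and that of CRYAB under 1 of 24. Intervals cover counting error only and leave out the spread between fish.

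HSPB1, known to protect actin filaments, and HSPB8, which with BAG3 guides damaged muscle proteins to autophagy, were not called. HSPB1 had 143, 189, 169.5 and 163 CPM in injured mutants, against 452, 187, 185 and 101 CPM in non-injured mutants, and 169.8, 88, 164 and 132 CPM in injured wild types, against 254, 129.8, 127 and 455 CPM in non-injured wild types. The non-injured fish ranged from 101 to 455 CPM, and the fold changes were -0.48 (SE 0.44, adjusted p = 0.448) and -0.80 (SE 0.44, adjusted p = 0.199) in mutants and wild types. HSPB8 had 177, 181, 216 and 171 CPM in injured mutants, against 155, 119, 91.8 and 96.3 CPM in non-injured mutants. That gap left no overlap, yet its log2 of 0.69 (SE 0.30, adjusted p = 0.0977) did not pass, and in wild types it was 0.30 (SE 0.30, adjusted p = 0.499). None of the 7 BAG genes was called in either genotype by edgeR, and 0 had an unadjusted p below 0.05. BAG3, the member with the highest mean CPM, had 101, 91.5, 111 and 95.7 CPM in injured mutants, against 144, 87.3, 79.8 and 85.4 CPM in non-injured mutants (0.01 (SE 0.28, adjusted p = 0.984)). It had 48.5, 44.4, 64.2 and 89.8 CPM in injured wild types, against 112, 45, 78.3 and 110.5 CPM in non-injured wild types (-0.49 (SE 0.28, adjusted p = 0.226)). Groups overlapped in both genotypes.

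Of 4 HSP90 genes 1 rose in mutants, and 0 were called in wild types by edgeR, where 0 had an unadjusted p below 0.05. HSP90AB1, the constitutive cytosolic form, had 387, 408, 351 and 410.3 CPM in injured mutants, against 211, 218, 211 and 276 CPM in non-injured mutants. It had 607, 515, 484 and 352 CPM in injured wild types, against 362, 398, 477 and 222 CPM in non-injured wild types. The mutant states stood apart, at 0.77 (SE 0.21, adjusted p = 0.0136), a call that held under all 25 alternatives, while the wild type states overlapped, at 0.42 (SE 0.21, adjusted p = 0.156). hsp90aa1.1, which works with UNC45B on myosin in zebrafish embryos, had 861, 903, 1082 and 906 CPM in injured mutants, against 1764, 1156, 975 and 1644 CPM in non-injured mutants. It had 488, 405, 665 and 751 CPM in injured wild types, against 1015, 377, 1153 and 960.2 CPM in non-injured wild types. States overlapped in both genotypes, and the log2 values of -0.56 (SE 0.30, adjusted p = 0.176) in mutants and -0.60 (SE 0.30, adjusted p = 0.156) in wild types did not pass. HSP90AA1 had -0.25 in mutants and -0.98 in wild types and HSP90B1, the endoplasmic reticulum form, 0.01 in mutants and 0.24 in wild types, and neither was called.

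Among the myosin chaperones, UNC45B had 185, 167, 182 and 162 CPM in injured mutants, against 191, 168, 139 and 236 CPM in non-injured mutants. It had 115, 101, 155 and 154 CPM in injured wild types, against 191, 49.2, 129 and 182 CPM in non-injured wild types. Its states overlapped, with log2 values of -0.08 (SE 0.30, adjusted p = 0.878) in mutants and -0.07 (SE 0.30, adjusted p = 0.892) in wild types, a sign that turned in both with library size as the only scaling. SMYD1 (ENSDARG00000009280), a methyltransferase of the sarcomere, had 736, 578, 701 and 701 CPM in injured mutants, against 995, 754, 1232 and 1353 CPM in non-injured mutants. It had 597, 513, 829 and 691 CPM in injured wild types, against 719, 1853, 1124 and 797 CPM in non-injured wild types. Injured mutants lay below all non-injured mutants without a call (-0.67 (SE 0.27, adjusted p = 0.076)), and the overlapping wild types passed narrowly (-0.77 (SE 0.27, adjusted p = 0.049)), a call lost under 17 of 25 alternatives with adjusted p up to 0.589. The other SMYD1 ID (ENSDARG00000091253) had 0.22 (SE 0.20, adjusted p = 0.462) in mutants and 0.51 (SE 0.20, adjusted p = 0.079) in wild types and was not called.

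No TRiC subunit passed the test after injury. Of 9 gene IDs, with CCT2 under both of its IDs, 0 were called by edgeR in either genotype, 0 had an unadjusted p below 0.05, and the log2 fold changes ran from -0.40 (CCT4) to 0.16 (CCT3) in mutants and from -0.27 (CCT8) to 0.10 (CCT3) in wild types. The 9 IDs summed to 934 to 1311 CPM in injured mutants, against 859 to 1792 CPM in non-injured mutants. They summed to 963 to 1325 CPM in injured wild types, against 749.5 to 1556 CPM in non-injured wild types. CCT6B, the one with the highest mean CPM, had 157, 187, 164 and 214 CPM in injured mutants, against 141, 157, 178 and 278 CPM in non-injured mutants (-0.06 (SE 0.25, adjusted p = 0.875)). It had -0.17 (SE 0.25, adjusted p = 0.667) in wild types. These values do not show that the subunits were unaffected, since the standard error of CCT6B alone was 0.25.

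**Figure D4:**
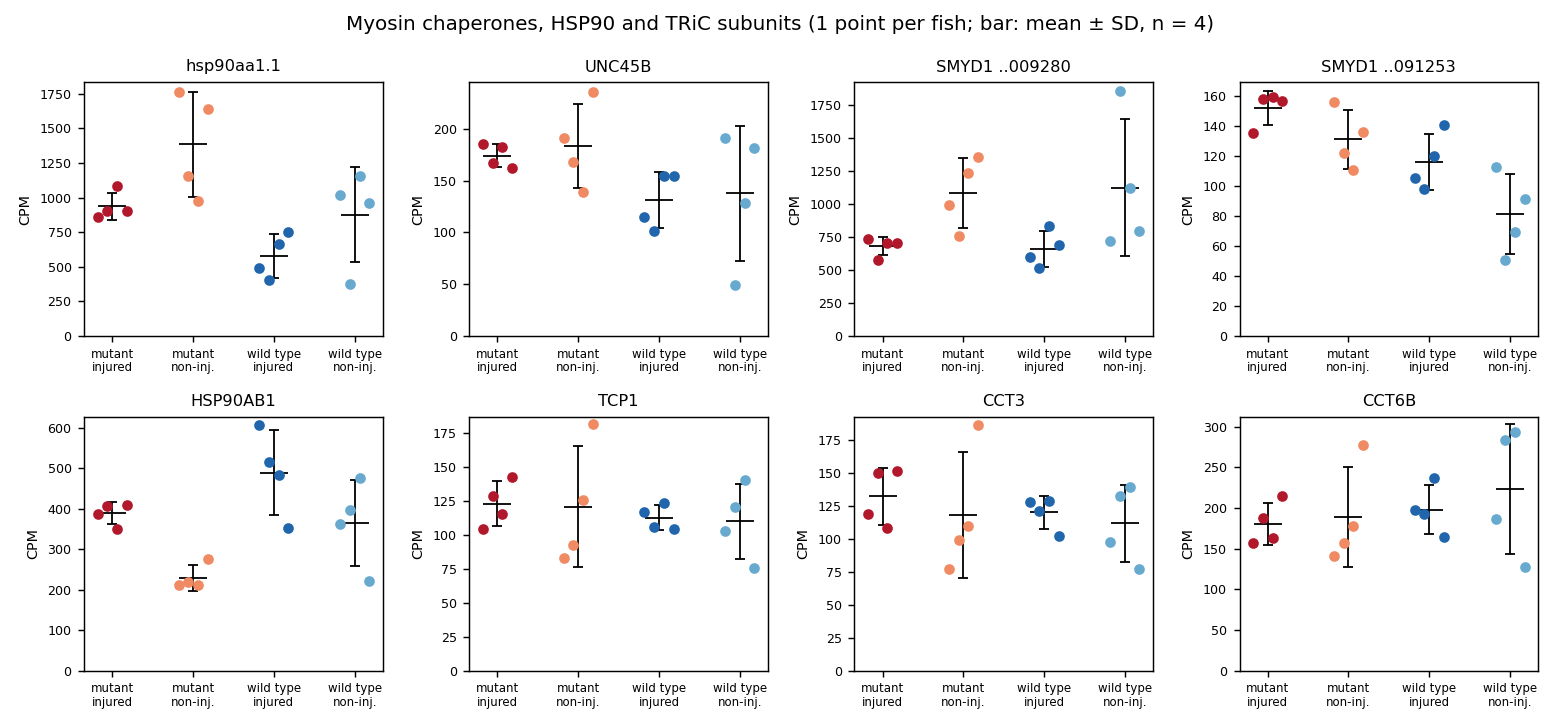
CPM in each fish for hsp90aa1.1, UNC45B, both SMYD1 IDs, HSP90AB1 and 3 TRiC subunits; bars are mean ± SD of 4 fish. Injured and non-injured mutants stand apart for HSP90AB1 and SMYD1 (ENSDARG00000009280), while the states overlap for UNC45B, TCP1, CCT3 and CCT6B.

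Of the mitochondrial pair, HSPE1, the lid of the HSP60 barrel, fell in mutants, with 30.1, 33.5, 26.8 and 32.4 CPM in injured mutants, against 42.1, 35.7, 45.2 and 48.4 CPM in non-injured mutants (-0.48 (SE 0.14, adjusted p = 0.0204)). It had 21.8, 19.6, 20.3 and 26.2 CPM in injured wild types, against 22.2, 23.8, 30.4 and 31.7 CPM in non-injured wild types (-0.30 (SE 0.14, adjusted p = 0.144)). The mutant call of HSPE1 held under 19 of 25 alternatives. Its partner HSPD1, whose gene is the neighbour of hspe1 in assembly GRCz12tu, was not called (0.21 in mutants and 0.33 in wild types). CHORDC1 (ENSDARG00000017067), an HSP90 co-chaperone, had 4.11, 4.61, 5.93 and 4.97 CPM in injured mutants, against 2.8, 2.35, 2.91 and 2.37 CPM in non-injured mutants. It had 4.87, 4.3, 4.06 and 4.02 CPM in injured wild types, against 3.26, 2.38, 2.43 and 3.77 CPM in non-injured wild types. Injured fish exceeded non-injured fish without overlap in both genotypes, at 0.91 (SE 0.17, adjusted p = 0.00153) in mutants and 0.54 (SE 0.17, adjusted p = 0.0327) in wild types. The wild type call was lost under 9 of 25 alternatives, with adjusted p up to 0.288. This CHORDC1 ID was the only one called among 9 other co-chaperones in either genotype. The other CHORDC1 ID (ENSDARG00000003973) had 2.71, 2.3, 3.46 and 2.46 CPM in injured mutants, against 4.9, 2.89, 3.43 and 3.77 CPM in non-injured mutants. It had 1.56, 2.15, 2.98 and 3.04 CPM in injured wild types, against 2.25, 2.38, 3.3 and 3.45 CPM in non-injured wild types. Its states overlapped in both genotypes. The HSP90 activator AHSA1 had -0.58 in mutants and -0.54 in wild types (ENSDARG00000028664) and the HSP70 to HSP90 adaptor STIP1 -0.00 in mutants and -0.12 in wild types. Of the factors, hsf1 had -0.39 (SE 0.19, adjusted p = 0.14) in mutants and 0.06 (SE 0.19, adjusted p = 0.861) in wild types, and HSF2 had -0.15 (SE 0.17, adjusted p = 0.557) and -0.46 (SE 0.17, adjusted p = 0.0672). The proteoglycan gene HSPG2 rose in mutants (0.45 (SE 0.12, adjusted p = 0.0128)) and had 0.06 (SE 0.12, adjusted p = 0.78) in wild types.

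Genes that work with the members but lie outside the rule were counted in 5 lists. For comparison, of all tested genes 14.0% rose and 13.3% fell in mutants, and 11.8% rose and 11.9% fell in wild types. Of 21 HSP90 co-chaperones, 1 rose and 8 fell in mutants, and 1 rose and 9 fell in wild types. NUDCD3 (-0.79 in mutants and -0.78 in wild types), FKBP4 (-0.84 and -0.66), the ubiquitin ligase STUB1 (-0.61 and -0.62) and rpap3 (-0.53 and -0.64) fell in both. Of 11 mitochondrial chaperone partners 4 fell in mutants and 3 in wild types, and 0 rose. GRPEL2, a nucleotide exchange factor of mitochondrial HSP70, had -0.82 and -0.62, and the protease subunits CLPX (-0.72 and -0.95) and CLPP (-0.51 and -0.53) fell too. Of 14 prefoldin and tubulin cofactors 3 rose and 2 fell in mutants, and 1 rose and 2 fell in wild types, with PDCL3 at 1.91 (SE 0.34, adjusted p = 0.00098) and TBCB at -0.68 (SE 0.12, adjusted p = 0.000957) in mutants.

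Of 10 partners in chaperone-assisted autophagy 1 rose and 6 fell in mutants, and 0 rose and 2 fell in wild types. MAP1LC3B, an autophagosome protein, had -0.61 in mutants and -0.69 in wild types. Also called lower in mutants were synpo2b (-0.75) and TSC1 (ENSDARG00000057918, -1.71), and the 1 rise was in the actin crosslinker FLNC (0.90), named after its value was seen. Of 10 HSF1 targets outside the rule 2 rose and 1 fell in mutants, and 3 rose and 4 fell in wild types. The collagen chaperone SERPINH1 led them, with log2 fold changes of 1.40 (SE 0.16, adjusted p = 3.94e-05) for ENSDARG00000019949 and 1.36 (SE 0.17, adjusted p = 6.11e-05) for ENSDARG00000075954 in wild types. In mutants they were 0.09 (SE 0.16, adjusted p = 0.707) and 0.51 (SE 0.16, adjusted p = 0.0292). The ubiquitin genes UBB (-1.11) and ubb (-1.19) fell in wild types. FKBP4, STUB1, TRAP1 and both PTGES3 IDs each stand in 2 of these lists.

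Between genotypes without injury, 6 of the 112 members differed, 4 higher and 2 lower in mutants (5.36%), where 2.83% of all tested genes were called, 1.38% higher and 1.45% lower. Both tested heat shock factors were among them, in opposite directions. hsf1 had 16.5, 12.7, 12.9 and 13 CPM in non-injured mutants, against 7.71, 9.08, 7.85 and 7.44 CPM in non-injured wild types, and the groups did not overlap (0.78 (SE 0.19, adjusted p = 0.0395)). HSF2, a factor active in development, had 11.9, 7.32, 9.3 and 10.2 CPM in non-injured mutants, against 13.1, 19.9, 19.4 and 12.7 CPM in non-injured wild types, again without overlap (-0.75 (SE 0.17, adjusted p = 0.0331)). With library size as the only scaling 8 members were higher and 0 lower, where 347 of all genes were higher and 76 lower. Mutants were of the bns502 line and wild types of the AB (Oregon) strain, so the allele and any other difference between them cannot be told apart. Non-injured mutant libraries held 17523729 to 19811579 counts and non-injured wild type libraries 18011159 to 25231137, and the part of depth was not tested.

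HSPE1 had 42.1, 35.7, 45.2 and 48.4 CPM in non-injured mutants, against 22.2, 23.8, 30.4 and 31.7 CPM in non-injured wild types (0.66 (SE 0.14, adjusted p = 0.0239)), and all mutants were higher. HSPD1 differed in the same direction without a call (0.72 (SE 0.25, adjusted p = 0.124)). DNAJB11 had 6.41, 5.88, 7.98 and 7.55 CPM in non-injured mutants, against 3.92, 2.87, 5.52 and 3.08 CPM in non-injured wild types (0.85 (SE 0.20, adjusted p = 0.0345)), also without overlap. DNAJC27, which joins a J domain to a small GTPase, had 9.59, 5.98, 10.3 and 5.24 CPM in non-injured mutants, against 2.67, 2.68, 2.22 and 3.81 CPM in non-injured wild types (1.45 (SE 0.34, adjusted p = 0.0351)). The lowest mutant exceeded the highest wild type. SERP1 (ENSDARG00000076223), a small protein of the endoplasmic reticulum translocon, had 10.5, 10.6, 13.4 and 11.3 CPM in non-injured mutants, against 21.4, 19.9, 21.7 and 13.7 CPM in non-injured wild types (-0.74 (SE 0.16, adjusted p = 0.0262)), and all mutants were lower. The falls of HSPE1 with injury and its excess without injury rest on the same 4 non-injured mutants.

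None of these 6 calls held under all 25 alternatives. Without non-injured wild type 2, 0 members were called, where 152 of all genes were higher and 177 lower, against 228 and 239 with it. That library had the lowest sum of the 5 HSP70 genes set together as inducible. It also had the lowest TMM factor (0.678) and the highest muscle fibre marker sum (512170 CPM), and the part of each was not tested. The count was 1 without non-injured mutant 3, 2 without non-injured wild type 1 or non-injured mutant 4, 3 without non-injured wild type 3 or non-injured mutant 2, and 4 to 7 without any other single library. With the epidermis level as a covariate 1 was called, where 77 of all genes were higher and 110 lower. The 18 epidermis markers had a median log2 fold change of -1.82 in this comparison.

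**Figure D5:**
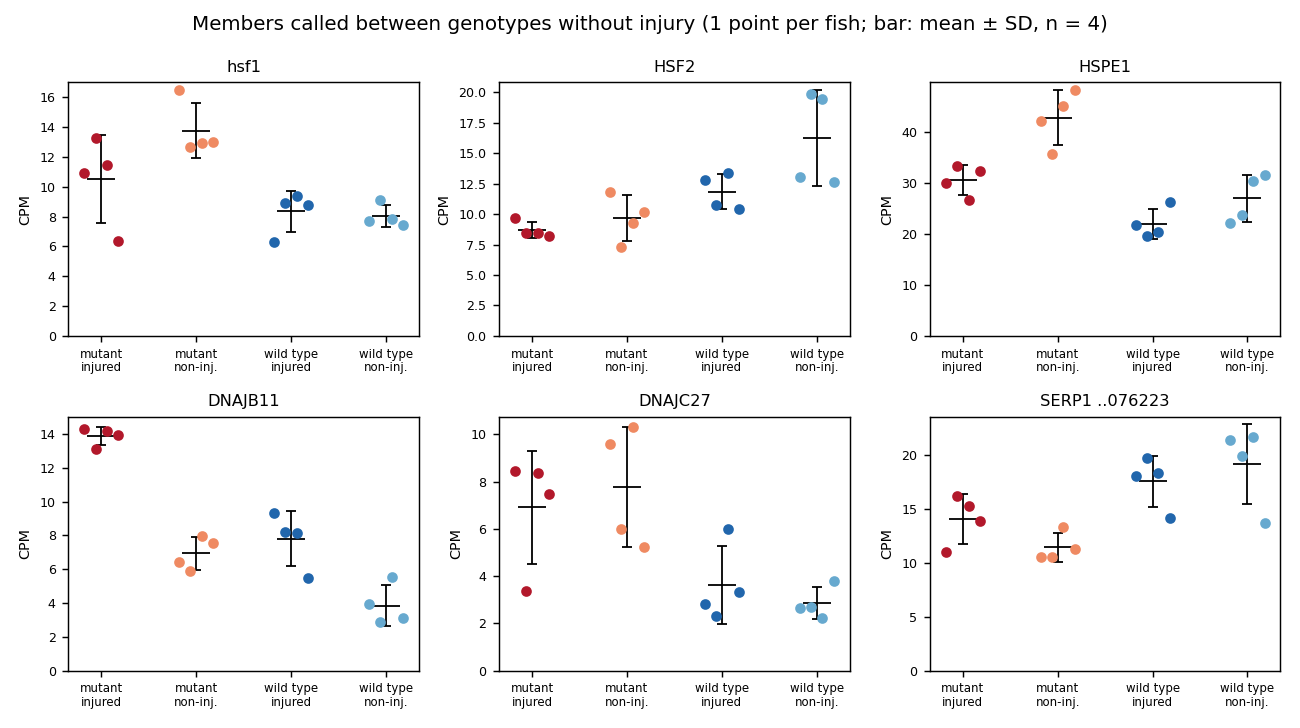
CPM in each fish for the 6 members called between genotypes without injury; bars are mean ± SD of 4 fish. Non-injured mutants lie above non-injured wild types for hsf1, HSPE1, DNAJB11 and DNAJC27 and below them for HSF2 and SERP1 (ENSDARG00000076223).

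After injury, DNAJB11 was the 1 member called between genotypes (0.893% of members, where 1.48% of all tested genes were called, 0.830% higher and 0.648% lower). It had 14.3, 13.1, 14.2 and 13.9 CPM in injured mutants, against 9.33, 8.21, 8.13 and 5.5 CPM in injured wild types. All 4 mutants were higher (0.83 (SE 0.19, adjusted p = 0.0435)), but the call was lost under 14 of the 25 alternatives, with adjusted p up to 0.102. Members called were 0 without injured wild type 1, 2 or 3 or any 1 mutant library, 1 without non-injured wild type 1, 3 or 4, 2 without injured wild type 4 and 3 without non-injured wild type 2. Of all genes 137 were higher and 107 lower with every library, and 55 and 61 without injured wild type 1. There were 134 and 116 without non-injured mutant 1 and 153 and 127 without non-injured wild type 2. Together with the 2 injury comparisons, DNAJB11 was thus called in 4 comparisons, which share groups.

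Small differences in 1 direction were found in many members after injury. The log2 fold change was positive, that is higher in injured mutants, for 89 of 112 members (79.5%), against 49.9% of all tested genes, with a median of 0.21 against 0.00. Members were measured in the same fish and are not independent, so these shares are a description. All 7 BAG genes and 38 of 47 J proteins were on that side, but TRiC had 4 positive and 5 negative (median -0.07) and the heat shock factors 1 and 1 (median -0.06). In 17 members all 4 injured mutants exceeded all 4 injured wild types, or 15.2% of members where 5.92% of all tested genes did so, and in 3 members all 4 were lower (2.68%, against 5.86%). Without injury, 69 members (61.6%) were positive, against 48.7% of all tested genes. There 7 members lay wholly above (6.25%, against 4.83% of all tested genes) and 2 wholly below (1.79%, against 4.21%). Scaled by library size alone, the share after injury was 90.2% of members, against 65.2% of all tested genes. Without any 1 library it ran from 74.1 to 81.3%. The injured mutant libraries also held fewer counts (17324501 to 17994093) than the injured wild type libraries (22006043 to 24189296), and the part of depth in this was not tested.

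Examples that were not called were dnaja at 0.81 (SE 0.25, adjusted p = 0.129), HSPA9 at 0.67 (SE 0.23, adjusted p = 0.161), hsp90aa1.1 at 0.70 (SE 0.30, adjusted p = 0.28) and BAG3 at 0.69 (SE 0.28, adjusted p = 0.256). BAG3 had 101, 91.5, 111 and 95.7 CPM in injured mutants, against 48.5, 44.4, 64.2 and 89.8 CPM in injured wild types, with every mutant higher. These 4 were chosen after their values were seen.

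The test of the difference between the injury responses called 0 of the 112 members by edgeR and 0 by DESeq2, where 0.0606% of all tested genes were called by edgeR (0.0182% higher and 0.0424% lower). Unadjusted p was below 0.05 for 5 members. Among these 5, hspb9 had the largest difference after that of the scarce CRYAB, at 3.28 in mutants and 1.36 in wild types, which differ by 1.92 (SE 0.62, adjusted p = 0.451). The others were DNAJC5 (ENSDARG00000004836) at -0.66 (SE 0.24, adjusted p = 0.548), HSPB2 at 0.74 (SE 0.34, adjusted p = 0.677), HSPG2 at 0.39 (SE 0.17, adjusted p = 0.661) and CRYAB, whose counts are given above (adjusted p = 0.397). DNAJC5, a J protein of synaptic vesicles, had 11.9, 9.4, 7.66 and 8.54 CPM in injured mutants, against 9.86, 9.62, 12.8 and 10.5 CPM in non-injured mutants. It had 13.6, 14, 15.3 and 14.3 CPM in injured wild types, against 13.3, 7.38, 9.65 and 10.9 CPM in non-injured wild types, with the injured wild types all higher. Outside the members, SERPINH1 (ENSDARG00000019949) passed this test narrowly (-1.31 (SE 0.23, adjusted p = 0.0499)). Genes outside the members were not followed one by one under the alternatives, so whether this call holds is unknown.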

How the data were processed

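Poly A RNA of zebrafish skeletal muscle was sequenced with a stranded kit, 1 fish a library, per the labels' protocols. The authors deposited estimated counts per gene (expected counts as RSEM gives them, 94.3% of them whole numbers), and RSEM 1.3.3, fastp 0.23.4 and STAR (2.7.10, 2.7.0) are listed in the submitters' processing notes. Genome build and annotation were not given in the sources used here. RSEM divides reads that fit several genes by probability, so counts of close paralogs are uncertain.

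Estimated counts were rounded. edgeR 4.0.16 in R 4.3.3 kept 16514 genes (filterByExpr, minimum count 10, minimum total 15), scaled by TMM and fitted a robust quasi-likelihood model with 1 mean per group to all 16 libraries (biological coefficient of variation 31.3%). Tests were two-sided, p was adjusted by Benjamini-Hochberg over all tested genes, and below 0.05 was called. Every adjusted p is from edgeR unless DESeq2 is named. SE was derived from the F statistic. The script was tested on simulated data. Contrasts were injured against non-injured by genotype, mutant against wild type by state, and the interaction. All 16 columns were matched to samples by name. Symbols came from a table naming 29201 of 32520 IDs.

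Members and lists were chosen with earlier results of these data known. Named were muscle chaperones, all members called, per-fish values for up to 12 called members a contrast with the smallest p, the most highly expressed member of classes without a call, and up to 4 called genes a list; others named are said to be so or illustrate a class. Alternatives were DESeq2 (1.42.0), its size factors in edgeR, library size only, no filter, only the groups compared, a replicate block, an epidermis covariate, leaving out each library and, chosen after seeing the data, leaving out 2 pairs of libraries. No sequences or coordinates are given, since no table of them was used here.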

Additional observations from a re-analysis of the deposited data

Results flagged for a closer look

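Among 31 members checked in each of 4 groups (124 groups of 4 fish), the highest or lowest fish stood far from the other 3 in 19 groups. The cut-off is passed in about 1 in 20 groups of independent, normally distributed values. CPM of genes from the same fish need not be such values, so the count cannot show an excess over chance. All values are CPM. HSP90AA1 did so 3 times, with 54.1 in injured mutant 2 (12.9 to 16.4 in the others), 9.22 in injured wild type 4 (17.5 to 18.9 in the others) and 67.1 in non-injured wild type 3 (16.6 to 22.8 in the others). Injured mutant 2 and non-injured wild type 3 were also the highest of their groups for 4 and 5 of the 5 HSP70 genes set together as inducible.

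Non-injured mutant 1 was far above its group for BAG3 (144.0), hsf1 (16.5), hspb9 (43.3) and CRYAB (3.07, ENSDARG00000101380). Non-injured mutant 4 was far above it for DNAJC1 (101.1), HSPA8 (438, ENSDARG00000068992) and HSP90AB1 (276), and non-injured mutant 2 for hspb15 (3.26). Non-injured mutant 3 was far below for DNAJC16 (19.3, ENSDARG00000060725). Non-injured wild type 4 was far above for DNAJC19 (46.6) and HSPB3 (19.6). Injured mutant 1 was high for HSF2 (9.66) and low for SMYD1 (135, ENSDARG00000091253). Injured mutant 3 was low for CRYAB (0.0494). In injured wild types a single count set fish 4 apart for CRYAB (0.0423) and fish 1 for hspb15 (0.0363), with the others at 0.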

How the results depend on the processing

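Over 25 alternatives no called member changed direction. Calls held in all of them for 10 of 29 members in mutants after injury, 8 of 28 in wild types after injury, 0 of 6 between genotypes without injury and 0 of 1 after it. Members called after injury in wild types were 28, and 12 with only the groups compared, 13 without the 2 libraries highest in epidermis markers, and 17 (without injured wild type 1 or 2) to 31 without 1 library. In mutants they were 29, and 20 with the epidermis covariate, 21 with library size only, 35 with only the groups compared, and 22 to 33 without 1 library. Calls of all genes under the main ones of these settings are given above for both genotypes. Between genotypes without injury there were 6 members, and 10 with DESeq2, 2 with only the groups compared, 1 with the epidermis covariate, 2 without the 2 epidermis-rich libraries, 2 without non-injured wild types 2 and 3, and 0 (without non-injured wild type 2) to 7 without 1 library. Of all genes 228 were higher and 239 lower in the main fit, and 536 and 599 with DESeq2. There were 68 and 62 with only the groups compared, 77 and 110 with the covariate and 143 and 156 without the epidermis-rich libraries. Without non-injured wild types 2 and 3 there were 110 and 112. After injury there was 1 member, and 0 with library size only, 5 with DESeq2, 3 with only the groups compared, 0 without the epidermis-rich libraries, 4 without non-injured wild types 2 and 3, and 0 to 3 without 1 library. Of all genes 137 were higher and 107 lower in the main fit, 154 and 54 with library size only and 369 and 343 with DESeq2. There were 214 and 172 with only the groups compared and 67 and 67 without the epidermis-rich libraries. Without non-injured wild types 2 and 3 there were 199 and 154. The difference of responses gave 0 members in each setting run, and only the groups compared is not a separate setting there. The cause of these changes was not tested, beyond fewer samples where libraries were left out.

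With library size only, 67.1% of all tested genes were positive in mutants and 72.2% in wild types, against 48.8% and 48.1% with TMM. Of the 112 members 66 were positive in mutants and 67 in wild types, against 49 and 47 with TMM, so many members not called changed sign. Among the members followed one by one, they were UNC45B in wild types (0.18 with library size only, 0.0083 with the replicate block, 0.19 without the epidermis-rich libraries, -0.35 to 0.13 without 1 library), HSPB8 in wild types (-0.065 without non-injured wild types 2 and 3), hsf1 in wild types (-0.0047 to 0.17 without 1 library), and in mutants UNC45B (0.22 with library size only, -0.19 to 0.069 without 1 library), HSP90AA1 (0.072 with library size only), BAG3 (-0.082 to 0.25 without 1 library), HSPB1 (-0.72 to 0.077) and CRYAB (-0.13 to 2.79). Replicate numbers were not taken to pair the fish, since the labels name no shared animal, litter or day. Same-numbered deviations correlated at 0.10, -0.18, 0.07 and 0.00 in mutants and 0.21, 0.14, 0.06 and 0.40 in wild types. Those of different numbers correlated at -0.17 to 0.22 in mutants and -0.39 to 0.33 in wild types. In wild types all 4 same-numbered values were positive and 3 exceeded 0.1, so a shared source there was not settled. With the number as a block 32 members were called in mutants, 28 in wild types and 4 and 1 between genotypes without and after injury, and 0 in the test of the difference. Of all genes 2187 rose and 2087 fell with this block in mutants, and 1841 and 1812 in wild types. Between genotypes 185 were higher and 198 lower without injury, and 86 and 78 after it. Member calls lost with the block were SMYD1 (ENSDARG00000009280) with injury in wild types, at adjusted p = 0.0751, and hsf1 and HSF2 between genotypes without injury, at 0.053 and 0.0504.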
